A study of Mus musculus with 6 samples.

Results

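The CXC chemokine ligand genes were examined in peritoneal neutrophils of cGAS-/- mice that were left untreated or stimulated with LPS. The 10 genes are the rows of the deposited table with the symbols Cxcl1, Cxcl2, Cxcl3, Cxcl5, Ppbp, Pf4, Cxcl9, Cxcl10, Cxcl11 and Cxcl16, out of 38739 genes in the table, and all 10 were among the 23049 genes with a value above 0 in at least 1 of the 6 samples. They were chosen by symbol, and the other CXC ligand genes in the table are described separately. All samples came from mice that lack cGAS, the cytosolic DNA sensor, on a C57BL/6J background (male young adults). Wild-type cells are not part of the comparison, so the values describe the response to LPS in the absence of cGAS and not the effect of the deletion. Cells were washed from the peritoneum 2 h after an injection of thioglycolate, which draws neutrophils into the cavity, and were cultured for 2 h without addition (untreated, n = 3) or with Escherichia coli LPS at 500 ng/mL as labelled (LPS, n = 3). The methods of the study name a lower LPS dose for the sequenced cells. Neither source says whether the samples of a group came from separate mice, and the p values then measure the spread between these samples, which may be technical.

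CXC chemokines are small secreted proteins that steer leukocytes. Those with a glutamate-leucine-arginine motif (encoded by Cxcl1, Cxcl2, Cxcl3, Cxcl5 and Ppbp) act on Cxcr2 and draw neutrophils, and neutrophils themselves make some of them, so that the first cells at a site can call in more. Ppbp and Pf4 are known for their storage in platelet granules. Cxcl9, Cxcl10 and Cxcl11 act on Cxcr3, draw T cells and natural killer cells and are classically induced by interferons. Cxcl16 is made as a membrane protein, binds Cxcr6 and is released by proteases. LPS is sensed by Tlr4, whose signals reach NF-κB and, through a separate branch, the interferon factors, and the mRNAs of several CXC ligands are kept short-lived by AU-rich stretches in their 3′ untranslated regions.

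The genes fall into 2 groups of neighbours on chromosome 5 and 1 gene on chromosome 11 (GRCm39, GENCODE M39). Cxcl5 (90907186 to 90909483), Ppbp (90916371 to 90917930), Pf4 (90918479 to 90922110), Cxcl3 (90933962 to 90937459), Cxcl1 (91039094 to 91040974) and Cxcl2 (91051730 to 91053797) lie together on the plus strand of chromosome 5. Cxcl9 (92469206 to 92475945), Cxcl10 (92494497 to 92496748) and Cxcl11 (92507403 to 92513344) follow on its minus strand. Cxcl16 lies on the minus strand of chromosome 11 (70344517 to 70352620). RefSeq promoters (GRCm38.p6) were at hand for 7 of the 10 genes and each matched GRCm39 exactly at 1 place. Cxcl5, Cxcl11 and Cxcl16 were not matched. The 250 bases before the RefSeq gene start of the 4 genes that passed the limits after LPS are shown because the motif matches differ between them. Capitals mark matches to the NF-κB motif, to the interferon-stimulated response element (ISRE) and to the AP-1 motif (TGANTCA), each searched on both strands with overlapping matches kept.
Cxcl1 (chr5:91038854-91039103, plus strand): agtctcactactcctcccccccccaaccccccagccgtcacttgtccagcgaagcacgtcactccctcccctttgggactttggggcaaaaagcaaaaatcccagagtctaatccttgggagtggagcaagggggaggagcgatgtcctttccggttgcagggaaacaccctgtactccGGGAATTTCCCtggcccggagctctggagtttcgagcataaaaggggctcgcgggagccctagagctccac
Cxcl2 (chr5:91051508-91051757, plus strand): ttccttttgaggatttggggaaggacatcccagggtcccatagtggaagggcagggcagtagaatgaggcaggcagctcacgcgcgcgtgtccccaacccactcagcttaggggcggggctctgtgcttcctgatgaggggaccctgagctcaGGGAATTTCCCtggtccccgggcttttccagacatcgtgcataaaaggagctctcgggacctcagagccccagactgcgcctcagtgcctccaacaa
Cxcl3 (chr5:90933710-90933959, plus strand): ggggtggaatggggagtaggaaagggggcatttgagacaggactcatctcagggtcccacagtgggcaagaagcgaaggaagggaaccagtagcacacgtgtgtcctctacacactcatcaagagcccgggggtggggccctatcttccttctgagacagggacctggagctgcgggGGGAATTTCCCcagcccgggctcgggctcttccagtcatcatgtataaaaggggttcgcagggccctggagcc
Cxcl10 (chr5:92496749-92496998, minus strand): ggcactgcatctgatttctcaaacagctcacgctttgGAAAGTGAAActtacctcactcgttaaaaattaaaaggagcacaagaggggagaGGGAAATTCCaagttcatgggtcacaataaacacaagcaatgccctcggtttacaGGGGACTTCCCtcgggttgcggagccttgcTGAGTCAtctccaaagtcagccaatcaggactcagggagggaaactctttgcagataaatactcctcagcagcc

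The NF-κB motif occurred in 4 of the 7 promoters, against 7.25% of the 32851 RefSeq promoters searched over the same 250 bases. Cxcl1, Cxcl2 and Cxcl3 each held the stretch GGGAATTTCC, starting 71, 97 and 73 bases before the gene start, where it overlaps a match on the other strand. Cxcl10 held NF-κB matches starting 159, 104 and 103 bases before its start, of which the last 2 overlap, together with an ISRE match 213 bases and an AP-1 match 74 bases before it. The ISRE occurred in 2.98% and the AP-1 motif in 6.75% of all promoters. Ppbp held 1 AP-1 match, and Pf4 and Cxcl9 held none of the 3 motifs in this window. The annotated start of Pf4 in GENCODE lies 1815 bases upstream of the RefSeq start, so the window examined there may not be the start in use. A match of letters is a description and not a binding site.

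**Figure D1:**
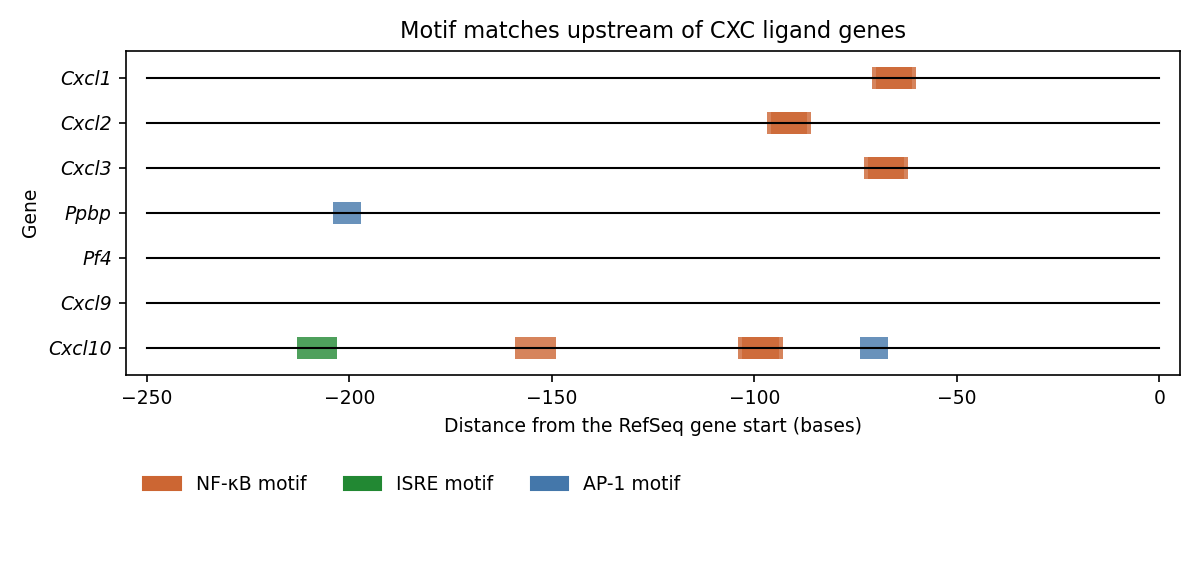
Matches to the NF-κB, ISRE and AP-1 motifs (coloured boxes) in the 250 bases before the RefSeq gene start of 7 CXC ligand genes, by distance from the start in bases. The NF-κB boxes of Cxcl1, Cxcl2 and Cxcl3 each cover 2 overlapping matches within 97 bases of the start, and Cxcl10 is the gene with matches to all 3 motifs.

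After LPS, 4 of the 10 genes (Cxcl1, Cxcl2, Cxcl3 and Cxcl10) were called higher and 0 lower, at the limits of the study (unadjusted limma p under 0.01, log2 fold change over 2). Among all genes tested, 1.69% were called higher and 1.31% lower. At a Benjamini-Hochberg adjusted p under 0.05 over all genes tested, Cxcl1, Cxcl2 and Cxcl3 were higher, against 0.894% of all genes tested, and 0 members were lower. At an unadjusted p under 0.05 in limma, 7 members were higher and 0 lower, against 10.3% and 6.66% of all genes tested. The median log2 fold change of the 10 genes was 1.96, against 0.01 over all genes tested. In 7 of them every LPS sample lay above every untreated sample, as in 13.1% of all genes tested. Values are given as scaled TPM. They were read as a length-normalized abundance (TPM) taken as the mean of a gene's transcripts, with each sample divided by its own factor. This unit was inferred from the values and is not certain. Fold changes are differences in log2(scaled TPM + 1), which understate the change of low genes. The number of reads per sample is unknown, so no counting error can be given.

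**Figure D2:**
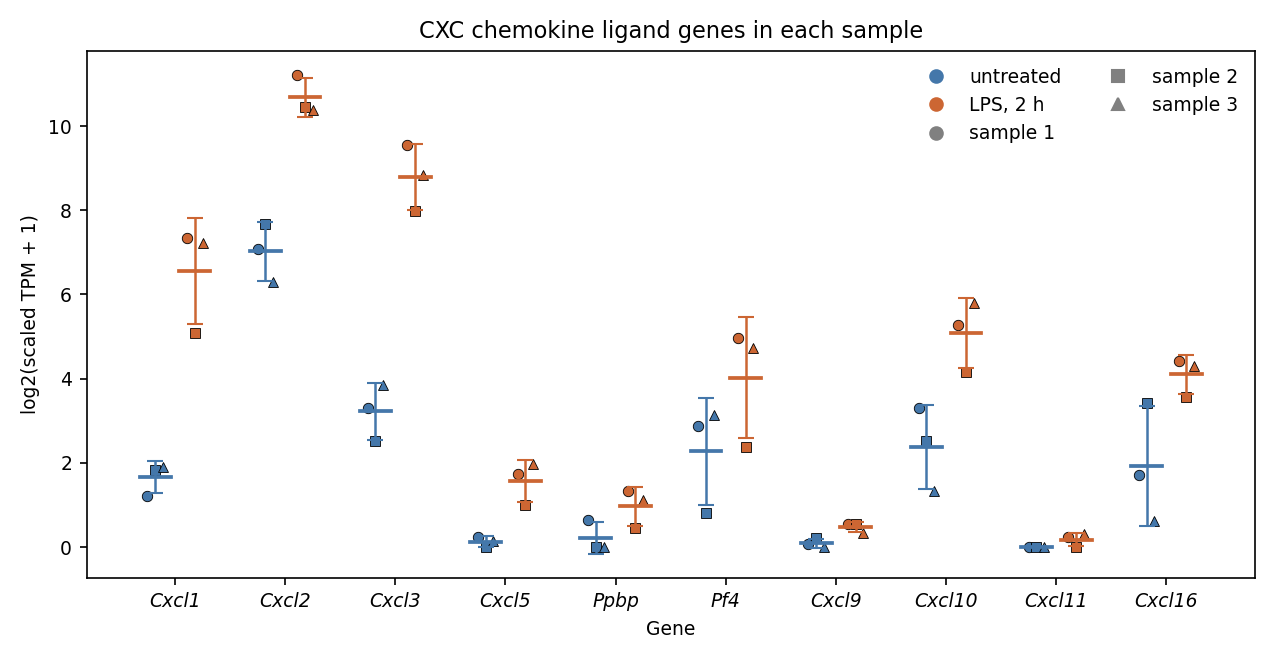
Level of each CXC ligand gene in log2(scaled TPM + 1) in the 3 untreated (blue) and 3 LPS samples (orange), with the sample number as the marker shape. Horizontal bars and whiskers are the mean and SD of these log2 values (n = 3), and the groups are farthest apart in Cxcl3, Cxcl1 and Cxcl2.

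The neutrophil-attracting genes Cxcl1, Cxcl2 and Cxcl3 showed the 3 largest changes of the family on the log2(scaled TPM + 1) scale. Cxcl3 stood at 8.90, 4.72 and 13.4 scaled TPM without LPS and at 745, 253 and 458 with it. Its lowest LPS sample lay far above its highest untreated sample, and the ratio of the group means was 54.0 (8.99 ± 4.32 against 485 ± 248, SD, n = 3). The log2 fold change was 5.57 (standard error 0.54, limma adjusted p = 0.0141), the fourth largest among the 23049 genes. Cxcl1, the closest mouse counterpart of the human neutrophil attractants of the GRO group, had 1.33, 2.57 and 2.76 scaled TPM untreated and 161, 33.2 and 148 after LPS. The groups did not overlap, although LPS sample 2 was well below the other LPS samples. The log2 fold change of Cxcl1 was 4.90 (standard error 0.67, limma adjusted p = 0.0325), and the ratio of the means was 51.4.

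Cxcl2, also known as macrophage inflammatory protein 2, was the most abundant member in each of the 6 samples. It stood at 135, 204 and 77.7 scaled TPM before and at 2381, 1392 and 1336 after LPS, a 12.2-fold rise of the mean (139 ± 63.4 to 1703 ± 588, SD, n = 3). The log2 fold change was 3.66 (standard error 0.46, limma adjusted p = 0.0256), the groups did not overlap, and the 3 LPS samples were closer to each other than for Cxcl1 or Cxcl3 in proportion. Among 14302 protein-coding genes, Cxcl2 ranked 163, 119 and 260 by level when untreated and 11, 30 and 22 after LPS. Cxcl3 moved from ranks 1670, 2368 and 1238 to 39, 136 and 71, and Cxcl1 from 4561, 3224 and 3446 to 168, 771 and 189. Ranks compare genes by a value read as an average over annotated transcripts, so a gene with many unused transcripts would be ranked too low. The transcripts of Cxcl2 and Cxcl3 are 90.0% identical over 561 aligned bases and those of Cxcl1 and Cxcl2 80.5% over 128, and how reads were shared between them is not known. No stretch of at least 150 bases was 95% or more identical to another gene outside the genes that overlap the members.

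Cxcl5 and Ppbp, which share Cxcr2 with the genes above, were low throughout. Cxcl5 was listed at 0.191, 0 and 0.105 scaled TPM untreated and at 2.32, 1.00 and 2.91 after LPS. The groups did not overlap and the ratio of the means, 21.1, was above that of Cxcl2 but rests on untreated values near 0. The unadjusted p was under 0.01, but the log2 fold change of 1.43 (standard error 0.36, limma adjusted p = 0.109) was under the limit of 2. Ppbp had 0.573, 0 and 0 scaled TPM untreated and 1.52, 0.367 and 1.19 after LPS, with overlapping groups and a log2 fold change of 0.75 (standard error 0.34, limma adjusted p = 0.332). Pf4, its platelet partner, stood at 6.32, 0.769 and 7.74 scaled TPM untreated and at 30.4, 4.17 and 25.5 after LPS. Sample 2 was the lowest of its group in both conditions, and LPS sample 2 lay below untreated samples 1 and 3. The log2 fold change of Pf4 was 1.75 with a 95% interval from -0.52 to 4.02 (limma adjusted p = 0.400), so that neither no change nor a large rise is outside it. In a fit that also took the replicate number into account, its standard error was 0.33 and not 0.93 (unadjusted p = 0.00512, limma adjusted p = 0.152). Without sample 2 of both groups, chosen after seeing the data, the log2 fold change was 1.85 (unadjusted p = 0.0033, limma adjusted p = 0.113). Pf4 passed both limits in neither fit.

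The 9 of 12 listed platelet and megakaryocyte markers that are in the table summed to 3.48 to 4.24 scaled TPM in the untreated and 10.8 to 14.2 in the LPS samples. Of the 9, 1 was called higher and 0 lower, against 1.69% and 1.31% of all genes tested. Most of the difference in the sum was in Tubb1, a platelet tubulin, with 0, 1.55 and 0 scaled TPM untreated and 10.6, 6.99 and 7.03 after LPS (log2 fold change 2.73, limma adjusted p = 0.0533). Itgb3, the other of the most abundant markers, ran from 0.458 to 3.03 untreated and from 1.58 to 2.27 after LPS. Among the lower markers, named after their values were seen, Clec1b had 0, 0 and 0.0180 scaled TPM untreated and 0.581, 0.312 and 0.456 after LPS, and the integrin gene Itga2b 0.760, 0.899 and 1.11 untreated and 0.0930, 0.185 and 0.350 after LPS. Gp9, a subunit of a platelet receptor, had a value of 0 in each untreated sample and reached at most 0.0964 after LPS. The part of platelet RNA in the values of Pf4 and Ppbp was not tested.

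Cxcl10, the most abundant of the Cxcr3 ligands, stood at 8.82, 4.72 and 1.51 scaled TPM untreated and at 38.0, 17.0 and 54.4 after LPS. Each LPS sample was above each untreated sample, the mean rose 7.27-fold, and the log2 fold change was 2.70 (standard error 0.66, unadjusted p = 0.00601, limma adjusted p = 0.104). This call rested on single samples: it was lost without untreated sample 2 or 3 and without LPS sample 1 or 3, with log2 fold changes of 2.77, 2.18, 2.60 and 2.35 (limma adjusted p = 0.147, 0.153, 0.295 and 0.311). Cxcl9 had 0.0496, 0.154 and 0 scaled TPM untreated and 0.461, 0.474 and 0.267 after LPS, groups that do not overlap but are all low (log2 fold change 0.39, limma adjusted p = 0.154). For Cxcl11 each untreated value was 0, and 0.175, 0 and 0.242 were listed after LPS, and no fold can be given for it. The 1 transcript of Cxcl11 in GENCODE is typed as a loss of function in the reference strain.

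Cxcl16 stood at 2.28, 9.80 and 0.533 scaled TPM untreated and at 20.5, 10.9 and 18.8 after LPS. The groups did not overlap, but untreated sample 2 came close to LPS sample 2. The log2 fold change of 2.18 (standard error 0.74) did not pass the limits (unadjusted p = 0.0259, limma adjusted p = 0.211), but passed them without untreated sample 2 (log2 fold change 2.94, unadjusted p = 0.00179, limma). Cxcl16 overlaps Med11, a Mediator subunit gene on the other strand, and 1757 bases of their transcripts are shared in opposite orientation. Med11 was at 0.588, 20.6 and 0.547 scaled TPM untreated and at 16.5, 23.6 and 16.4 after LPS, so untreated sample 2 was the high one in both genes. The libraries were stranded, but whether strand was used in the quantification is not given in the sources used here, and the reads of the 2 genes may not be separate. Other overlaps in the table were with Zmynd15 for Cxcl16, with Art3 for Cxcl10 and Cxcl11 and with the pseudogene Gm2673 for Cxcl11, each at 0.59 scaled TPM or less in every sample. Cxcl5 overlaps the long non-coding RNA gene Gm72413 on the other strand over 421 bases, for which no value was at hand.

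**Figure D3:**
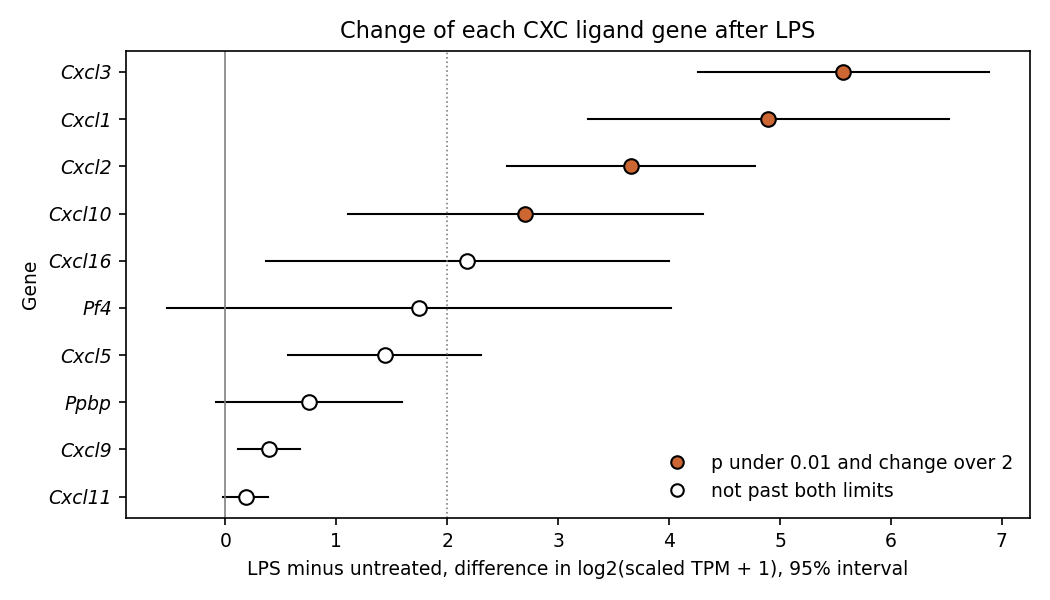
Difference in log2(scaled TPM + 1) between the LPS and untreated samples for each CXC ligand gene, with the 95% interval of limma (horizontal lines, 3 against 3 samples). Filled points passed both limits, the dotted line marks the fold limit of 2, and the intervals of Pf4, Ppbp and Cxcl11 reach 0.

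The order of levels within the family changed in part. In the untreated samples Cxcl2 was above all others without overlap, and the ranges of Cxcl3, Cxcl10, Pf4, Cxcl16 and Cxcl1 overlapped from each to the next. After LPS the order of the means was Cxcl2, Cxcl3, Cxcl1, Cxcl10, Pf4, Cxcl16, Cxcl5, Ppbp, Cxcl9 and Cxcl11. Cxcl2, Cxcl3 and Cxcl1 were then separated from each other without overlap, whereas the ranges of Cxcl1 and Cxcl10, Cxcl10 and Pf4, and Pf4 and Cxcl16 overlapped. Within each LPS sample, Cxcl1 was nevertheless above Cxcl10 in 3 of 3. Cxcl1 thus went from the sixth to the third place by mean level. Each value was read as a mean over the annotated transcripts of a gene. GENCODE M39 lists 10 for Ppbp, 9 for Pf4, 6 for Cxcl16, 4 each for Cxcl2 and Cxcl10 and 2 each for Cxcl1 and Cxcl3. On this reading the order of the members, and their sums and shares below, depend on these numbers too. A member with many unused transcripts would stand too low.

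The 10 genes summed to 164, 227 and 104 scaled TPM untreated and to 3381, 1712 and 2046 after LPS. As a share of the summed values of protein-coding genes this was 0.109%, 0.122% and 0.0729% untreated and 1.67%, 0.623% and 1.01% after LPS. The protein-coding genes summed to 142270 to 186687 untreated and 202467 to 274643 after LPS. All genes of the table summed to 603599 to 713384 and 404675 to 465904. The make-up of the values thus differed between the groups, and its cause was not tested. With protein-coding genes alone, rescaled to their sum, the log2 fold change of Cxcl2 was 3.16, and Cxcl10 was not called (2.28). Cxcl2 gave 82.5% ± 7.54 of the family sum untreated and 72.4% ± 8.18 after LPS, and Cxcl3 6.80% ± 5.53 and 19.7% ± 4.31 (SD, n = 3). The log2 ratio of Cxcl3 to Cxcl2 within a sample depends on how samples were scaled only through the 0.1 added to each value. It was -3.95 ± 1.44 untreated and -1.89 ± 0.50 after LPS (SD, n = 3), and each LPS sample was above each untreated one. The exact two-sided permutation p was 0.1, the smallest that 3 against 3 samples allow, and 0.5 after Benjamini-Hochberg adjustment over the 5 ratios examined. With 1 added to each value, the difference was 1.91 in place of 2.06 (exact permutation p = 0.2). The ratio of Cxcl2 to Cxcl1 went from 5.86 ± 0.96 to 4.15 ± 1.13 (exact permutation p = 0.2). For Cxcl10 to Cxcl2, Cxcl16 to Cxcl2 and Pf4 to Ppbp the differences were -0.67, -0.95 and -0.31 (exact permutation p = 0.5, 0.3 and 0.9).

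The LPS samples were not alike. LPS sample 2 was the lowest LPS sample for 8 of the 10 genes, the exceptions being Cxcl2 and Cxcl9. Sample 2 also had the highest sum of the 13 neutrophil markers in both groups, 30260 scaled TPM against 10531 to 10617 untreated and 57815 against 18374 to 20915 after LPS, and the lowest sum of the 5 B cell markers, 142 against 407 to 550 untreated and 67.3 against 225 to 237 after LPS. Without sample 2 of both groups, a choice made after seeing the data, 4 members were again called higher, Cxcl1, Cxcl2, Cxcl3 and Cxcl16, while Cxcl10 was not (log2 fold change 3.23, limma adjusted p = 0.155). The part of sample 2 in the other values was not tested. Of these 13 markers of the labelled cell type, 0 were called higher and 1 (Cxcr2) lower, against 1.69% and 1.31% of all genes tested. By sign, 7 were higher and 6 lower. In 2 every LPS sample lay above every untreated sample, and in 3 below, against 3026 and 2248 of the 23049 genes. The most abundant were S100a9 (5233 to 16151 scaled TPM untreated, 8899 to 28393 after LPS) and S100a8 (2086 to 8405 and 5536 to 19851). They made up most of the marker sum in each sample. Ly6g, Retnlg, Fpr1 and Fpr2 were listed but are not in the table. B cell RNA was present as well, with Cd79a at 27.4 to 457 scaled TPM untreated and 36.6 to 134 after LPS, as was the monocyte and macrophage gene Cd68 (157 to 179 and 230 to 381). In bulk samples, fewer cells of a type and less RNA per cell cannot be told apart. Of the deleted gene itself, Cgas, 0.180 to 0.307 scaled TPM were listed untreated and 0.0286 to 0.184 after LPS.

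**Figure D4:**
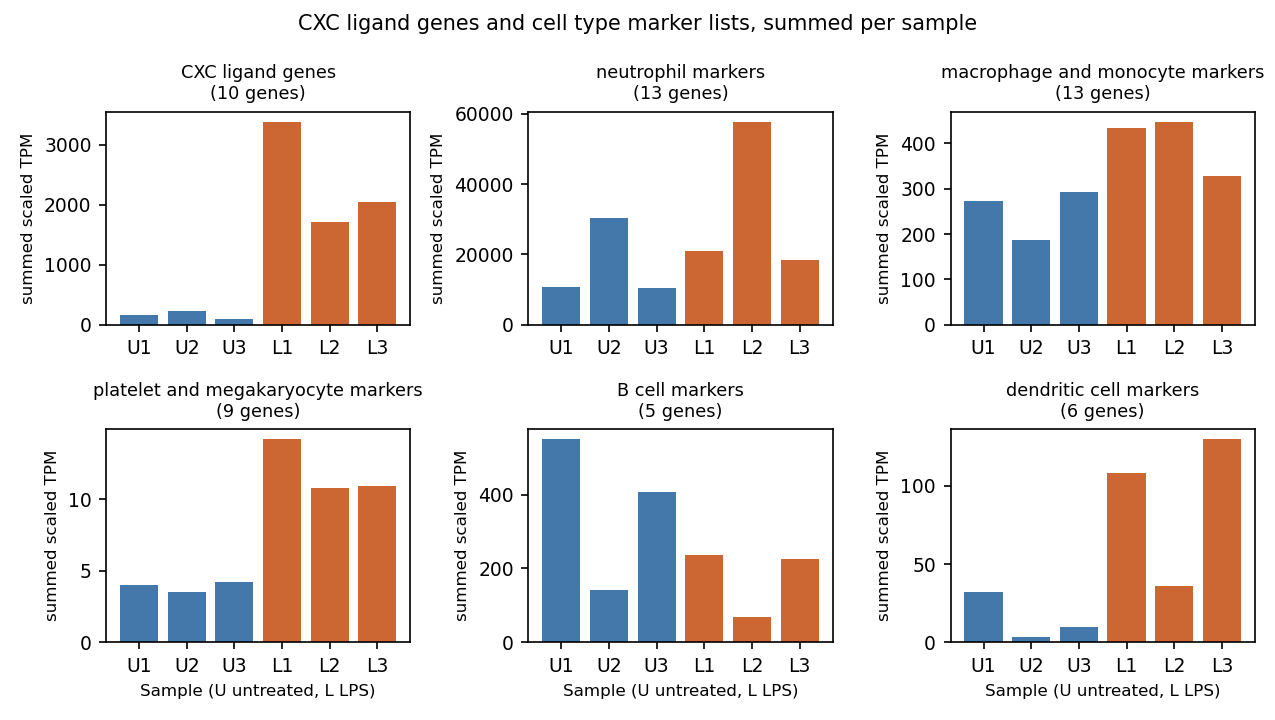
Summed scaled TPM of the 10 CXC ligand genes and of 5 marker lists in each sample (U1 to U3 untreated in blue, L1 to L3 LPS in orange), 1 bar per sample on axes that start at 0. The ligand sum was 1712 to 3381 in the LPS samples against 104 to 227 untreated, and sample 2 of each group had the highest neutrophil and the lowest B cell sum.

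Macrophages, which also make these ligands, were followed by the 13 of 19 listed markers that are in the table. Adgre1, Csf1r, Gata6, Ms4a7, Ly6c2 and Vsig4 are not in it. Of the 13, 1 was called higher and 0 lower, against 1.69% and 1.31% of all genes tested. Their sum was 186 to 293 scaled TPM untreated and 327 to 448 after LPS. The called marker, C1qb, had 2.77 ± 2.02 scaled TPM untreated and 19.8 ± 3.63 after LPS (SD, n = 3), and is named here after its values were seen. The second of the most abundant markers, Apoe, stood at 14.8 to 86.4 untreated and at 26.0 to 72.6 after LPS. Of the less abundant markers, C1qa and C1qc, which encode the partner chains of C1qb, had 1.2 to 20.0 and 0.254 to 5.79 scaled TPM untreated and 6.55 to 14.4 and 5.53 to 8.11 after LPS. Marco and Mrc1 reached 5.05 and 2.50 scaled TPM untreated and 4.72 and 1.01 after LPS, and Cd163 and Mertk at most 0.0487 and 0.147 untreated and 0.141 and 0.191 after LPS, all named after their values were seen. Of the 6 dendritic cell markers 0 were called in either direction, and their sum of 3.55 to 32.3 untreated and 35.8 to 130 after LPS included Ccr7 at 2.24 to 27.1 and 33.5 to 125. The part of these cells in the ligand values was not tested. T cell (Cd3g, Cd2), NK cell (Eomes, Ncr1), mast cell (Cpa3, Kit), eosinophil (Ccr3, Prg2), mesothelial (Krt19, Wt1) and fibroblast (Dcn, Col1a1) lists held 0 called genes. The mast cell list summed to 5.53 to 42.1 scaled TPM untreated and 5.70 to 54.3 after LPS, and the T cell list to 8.43 to 21.3 over the 6 samples.

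Of 8 listed receptor and decoy receptor genes, 7 were in the table and tested, and Cxcr3, the receptor for Cxcl9, Cxcl10 and Cxcl11, was not among these. Of the 7 tested, 0 were called higher and 1 lower, against 1.69% and 1.31% of all genes tested. The median log2 fold change over them was -0.32. The gene called lower was Cxcr2, the receptor for the neutrophil-attracting ligands, which stood at 39.4, 120 and 100.2 scaled TPM untreated and at 7.10, 23.6 and 8.69 after LPS. Its groups did not overlap, as in 2248 of the 23049 genes tested in this direction, and the log2 fold change was -2.67 (standard error 0.62, unadjusted p = 0.00480, limma adjusted p = 0.0944). This call was lost without untreated sample 2 or 3, without LPS sample 1 or 3 and with each sample rescaled to the same sum, although the log2 fold change stayed below -2 in each (lowest limma adjusted p of these 0.126). Cxcr4, the receptor for Cxcl12, had 72.0, 107 and 78.5 scaled TPM untreated and 36.5, 43.3 and 55.1 after LPS, groups that do not overlap (log2 fold change -0.92, limma adjusted p = 0.208). Cxcr6, the receptor for Cxcl16, and Cxcr5, the receptor for Cxcl13, are named after their values were seen, because each was called when 1 sample was left out. Cxcr6 had 10.7, 1.54 and 15.3 scaled TPM untreated and 2.36, 1.10 and 2.07 after LPS (log2 fold change -1.49, and -2.30 without untreated sample 2, limma adjusted p = 0.368 and 0.0569). Cxcr5 had 6.14, 2.64 and 6.26 untreated and 25.6, 7.35 and 22.3 after LPS (log2 fold change 1.59, and 2.12 without LPS sample 2, limma adjusted p = 0.226 and 0.106). Of the 4 other CXC ligand genes tested 0 were called in either direction. Cxcl13, a B cell attractant, was at 0.267, 0.994 and 0 scaled TPM untreated and at 19.1, 0.341 and 6.91 after LPS, with LPS sample 2 within the untreated range. It was called higher without LPS sample 2 (log2 fold change 3.21, limma adjusted p = 0.0843). Cxcl14 was at 0.944 or less in every sample.

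Among 14 tested genes of the LPS receptor and of NF-κB control, 5 were called higher and 0 lower, against 1.69% and 1.31% of all genes tested. The median log2 fold change over them was 1.94. Nfkbib, an inhibitor of NF-κB, stood at 2.51, 4.20 and 5.33 scaled TPM untreated and at 123, 115 and 129 after LPS (log2 fold change 4.66, limma adjusted p = 0.00568). Tnfaip3, a ubiquitin-editing inhibitor of the same pathway, rose to 163 ± 27.6 scaled TPM after LPS with a log2 fold change of 3.56, the subunit Nfkb1 rose from 7.52 ± 1.82 to 46.6 ± 4.17 and the kinase Map3k7 from 0.838 ± 0.514 to 7.51 ± 0.0529 scaled TPM (SD, n = 3; limma adjusted p = 0.0352, 0.0217 and 0.0395). The subunit Rel, named after its values were seen, completes the 5 (9 with the samples rescaled to the same sum) with a log2 fold change of 2.17 (limma adjusted p = 0.0738). Nfkbia and Cebpb, the most abundant of the list, reached 1519 ± 168 and 2096 ± 918 scaled TPM (SD, n = 3) after LPS without passing both limits.

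Of 19 genes of the interferon arm tested, 0 were called in either direction, which is near the 1.69% higher and 1.31% lower of all genes tested. At an unadjusted p under 0.05 in limma, 5 were higher and 0 lower, limits that 10.3% and 6.66% of all genes tested passed. Isg15, a ubiquitin-like interferon-induced protein and the most abundant of them, had 73.6, 139 and 330.0 scaled TPM untreated and 611, 383 and 700.4 after LPS (log2 fold change 1.86, limma adjusted p = 0.187). Rsad2, an antiviral enzyme also known as viperin, had 36.6 to 105 untreated and 68.4 to 110.2 after LPS, with overlapping groups. The median log2 fold change of the list was 0.90. By sign, 16 of the 19 were higher and 3 lower, against 12200 and 10849 of the 23049 genes tested. Gbp2, named after its values were seen, had the largest log2 fold change of the list, 3.06 (unadjusted p = 0.0138, limma adjusted p = 0.152). It stood at 21.1, 28.1 and 2.73 scaled TPM untreated and at 136, 54.8 and 181 after LPS, without overlap. Without untreated sample 2, 2 genes of the list were called higher (Oas1a and Tyk2), without untreated sample 3 it was 1 (Isg15), and with the samples rescaled to the same sum it was 3 (Gbp2, Isg15 and Tyk2), in each case with 0 lower. Gbp2 was also called with a pseudocount of 5, with the filter on the mean and, together with Tyk2, with scaling to housekeeping genes. Usp18 was called with the fold limit at 1. Of 6 protease genes tested that can shed or trim CXC ligands, 0 were called in either direction, against 1.69% and 1.31% of all genes tested. Mmp8 and Mmp9, the most abundant, had log2 fold changes of 0.01 and -1.56 (limma adjusted p = 0.994 and 0.464).

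**Figure D5:**
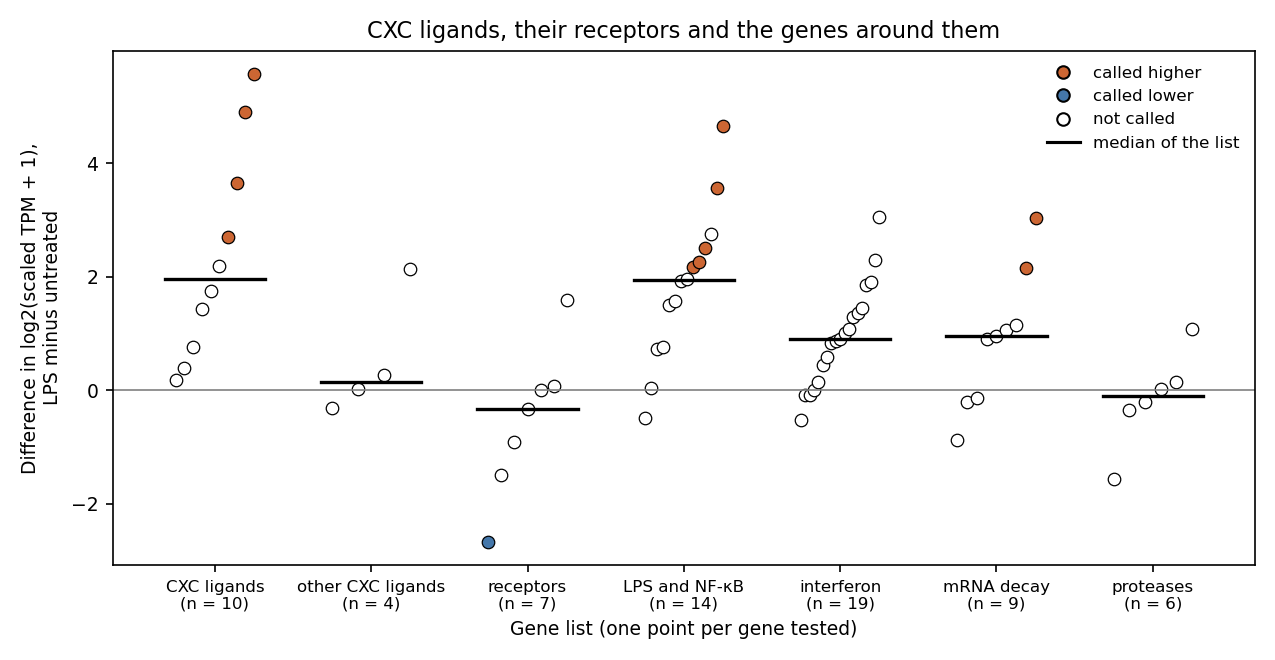
Difference in log2(scaled TPM + 1), LPS minus untreated, for each tested gene of 7 gene lists (1 point per gene, n under each list), with the median of the list as a bar. Filled points passed both limits: 4 CXC ligands, 5 genes of the LPS and NF-κB list and 2 of the mRNA decay list were called higher, and 1 receptor, Cxcr2, lower.

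Of 9 tested genes that act on the lifetime of chemokine mRNAs, 2 were called higher and 0 lower, against 1.69% and 1.31% of all genes tested. The median log2 fold change over them was 0.95. Zc3h12a, an endonuclease that degrades inflammatory mRNAs, stood at 14.7, 37.8 and 40.1 scaled TPM untreated and at 190.1, 295 and 245 after LPS (log2 fold change 3.04, limma adjusted p = 0.0400). The kinase Mapkapk2 rose from 160.4 ± 43.9 to 710 ± 148 scaled TPM (SD, n = 3, limma adjusted p = 0.0429). Zfp36, or tristetraprolin, which binds AU-rich stretches, had 109, 225 and 43.1 untreated and 142, 411 and 166 after LPS, with overlapping groups. The AU-rich motif TATTTAT was counted in the annotated 3′ untranslated region of each member (GENCODE M39, the transcript with the longest coding sequence), a search added after the values were seen. It occurred 7 times in the 734 bases of Cxcl2, 6 times in the 592 bases of Cxcl1, 2 times in the 645 bases of Cxcl3 and 1 time in the 1111 bases of Cxcl5. Ppbp, Pf4, Cxcl9, Cxcl10 and Cxcl16 held none, and Cxcl11 was not searched because it has no protein-coding transcript there. The motif occurred at least once in 31.4% of 11882 protein-coding genes tested, and at least 7 and 6 times in 0.295% and 0.539% of them. The 30 bases with the most complete matches show how the copies overlap in Cxcl1 and Cxcl2 and stand alone in Cxcl3, with complete matches in capitals.
Cxcl1 (chr5:91040466-91040495, plus strand): tccTATTTATTTATgTATTTATTTATtcca
Cxcl2 (chr5:91053187-91053216, plus strand): attTATTTATctatgTATTTATTTATTTAT
Cxcl3 (chr5:90935879-90935908, plus strand): gtcttagaatggagaagtttaaaTATTTAT

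For each member called higher, the 2 other genes with the most similar profile over the 6 samples were taken from 2741 genes with a mean of at least 10 scaled TPM, by the root mean square distance of the centred log2(scaled TPM + 1) values. For Cxcl10 these were Dusp4, a phosphatase of MAP kinases (distance 0.25), with a log2 fold change of 2.78, and Nhp2 (0.39). For Cxcl2 they were Ppp1r15a (0.34), a stress-induced phosphatase subunit with 17.3, 31.7 and 6.79 untreated and 195, 122 and 158 after LPS, and the proteasome gene Psma1 (0.35). Ppp1r15a had its highest untreated value in sample 2 and its lowest LPS value in sample 2, whereas Cxcl2 was highest untreated in sample 2 but lowest after LPS in sample 3. For Cxcl1 they were the processed pseudogene Gm10146 (0.49) and Swap70 (0.50), which stood at 1.77, 1.63 and 1.87 untreated and at 71.1, 18.5 and 63.7 after LPS, so that LPS sample 2 was low in both genes. For Cxcl3 they were the processed pseudogenes Gm12751 (0.62) and Gm10146 (0.62), whose reads may come from their parent genes. Between members, the profiles of Cxcl1 and Cxcl3 were 0.67 apart and those of Cxcl2 and Cxcl10 0.82, against 1.70 for Cxcl3 and Cxcl10. Cxcl10 was as near to Cxcl16 (0.82) as to Cxcl2, and 0.86 from Cxcl5.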

How the data were processed

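RNA sequencing values of 6 samples were analysed, 3 untreated and 3 LPS, grouped by title and treatment label. Libraries were made with a stranded mRNA kit, and the labels and the methods name different sequencers. The authors aligned reads to GRCm39 with STAR and quantified with kallisto (fastp and mm10 also stand in the submitters' processing notes), with edgeR named for normalization. Versions and the annotation release are not given in the sources used here. The deposited values are TPM, for each gene the mean of its transcripts, with every sample divided by its own factor, as read from the values themselves: of 1296 long decimals of untreated sample 3, 83.8% became short after multiplying by a whole number from 2 to 60. Read counts cannot be recovered, depth is unknown, so count models were not fitted.

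Genes above 0 in at least 1 sample were fitted on log2(value + 1) in limma (version 3.58.1, R 4.3.3), comparing LPS with untreated samples without covariates, and two-sided p values came from eBayes with trend = TRUE. Called means a log2 fold change beyond 2 with p under 0.01 before adjustment. Adjusted p values are Benjamini-Hochberg over all genes tested. Ratios of 2 genes used log2 with 0.1 added to each value and an exact permutation test. The fit was run on simulated data with independent normal noise on the log2 scale and planted changes of known size in well-expressed, less variable genes. That setting lacks the differences between samples and the low values seen here, so it does not bear on them. The family members and gene lists were chosen with earlier results of these data known. Listed genes that are absent from the table were not tested. Named genes are all members, up to 4 called genes and the 2 most abundant of each pathway list, the 2 most abundant of each marker list and the 2 most similar genes of each called member. Alternatives were other pseudocounts, filters, limits and scalings, eBayes without a trend, a replicate block and leaving out each sample. Python 3.11.15 with pandas 2.3.3 and matplotlib 3.10.9 was also used.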

Additional observations from a re-analysis of the deposited data

How the results depend on the processing

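Cxcl1, Cxcl2 and Cxcl3 were called higher under each of the 20 alternatives, with log2 fold changes from 3.78 to 5.71, 3.16 to 4.29 and 5.05 to 6.16. Their adjusted p ran from 0.00947 to 0.154, 0.00712 to 0.154 and 0.00369 to 0.122 in limma. The call of Cxcl10 was lost under 10 of 20 alternatives and Cxcl16 was called under 4 of 20. The members called were 3 to 5 under all alternatives and 3 to 4 with 1 sample left out. The fitted value of Cxcl11, 0.18, turned to -0.0205 after centring on the median. The log2 ratio of Pf4 to Ppbp, -0.31, turned to 1.00 with 1 added to each value, and ran from -0.86 to 0.73 with 1 sample left out, above 0 without untreated sample 3 or LPS sample 2.

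Over all genes, 389 were called higher and 301 lower. With a pseudocount of 0.1 the counts were 856 and 493, with 5 they were 129 and 168, and with the fold limit at 1 they were 834 and 673. An adjusted p under 0.05 gave 206 higher genes. Rescaling to the same sum gave 796 and 146 and moved the median change of the genes above 0 in all samples from 0.006 to 0.299 on the log2 scale. Centring on the median gave 310 and 414 with a median change of -0.196. Protein-coding genes alone, rescaled to their sum and chosen after seeing the data, gave 148 and 124. Leaving out 1 sample gave 260 to 463 higher and 263 to 394 lower. The cause of these differences was not tested.

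The sources do not say whether replicate numbers pair the samples, and the main fit did not pair them. The deviations of same-numbered samples correlated at 0.0935, 0.199 and 0.0835, against -0.131 to 0.0535 for the other pairs. Each sample thus correlated best with its own number, a hint from the data and not from the design. A fit with a replicate block called 387 genes higher and 303 lower, and 3 members were called (Cxcl1, Cxcl2 and Cxcl3). Among the other genes, Nfkbib, Nfkb1 and Zc3h12a were called under each of 20 alternatives. Rel was not called without untreated sample 3 (log2 fold change 1.78), LPS sample 1 (2.12) or LPS sample 3 (2.05), Map3k7 not without untreated sample 1, and Mapkapk2 not without untreated sample 3 or LPS sample 2. Their log2 fold changes were then 2.00, 1.92 and 1.99. Rel was also lost at an adjusted p under 0.05, with a pseudocount of 5, after centring on the median (1.97) and with protein-coding genes alone (1.69). Map3k7 was also lost with a pseudocount of 5 (1.10) and with protein-coding genes alone (1.95). Mapkapk2 was also lost after centring on the median (1.96) and with protein-coding genes alone (1.66). Tnfaip3 was lost only without sample 2 of both groups (3.22). Of the LPS and NF-κB list, 9 were called higher after rescaling to the same sum, 8 with the fold limit at 1, and 3 with a pseudocount of 5 or with protein-coding genes alone. The number of samples, 3 a group, and the unknown depth limit the precision of the low members.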
